A study of Ovis aries and Bos taurus with 15 samples.

Results

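The genes described here code for proteins of the spliceosome and for heterogeneous nuclear ribonucleoproteins (hnRNPs). They were taken as the probe sets of a bovine Affymetrix array whose annotation gives exactly 1 gene symbol and whose symbol starts with HNRNP, SNRP, SF3, PRPF or U2AF. The rule found 68 probe sets of 45 genes, out of 24128 probe sets on the array and 9155 genes with a probe set of a single symbol. The members comprise 27 hnRNP probe sets of 16 genes, 9 probe sets of 8 snRNP protein genes, 14 of 9 SF3A and SF3B genes, 2 of 2 U2AF genes and 16 of 10 PRPF genes. A further 2 probe sets with a member symbol carry a second symbol and were left out. Cultured cells were measured in 3 groups of 5 arrays: bovine control cells labelled BAEC, ovine cells labelled PAEC in DMSO as vehicle, and the same ovine cells exposed to 5 µM GW9662 over 24 h. All were grown in DMEM with 10% FBS, and GW9662 is an irreversible antagonist of the nuclear receptor PPARγ. Whether the 5 arrays of a group stem from separate animals or cultures is not given in the labels, and the p-values cover only the spread between these samples, which may be technical. Bovine and ovine cells also differ in their labelled cell type and in DMSO, so species, cell type and vehicle cannot be told apart.

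The spliceosome removes introns from pre-mRNA and is assembled on each intron from small nuclear ribonucleoproteins (snRNPs), each an RNA with its proteins. U1 pairs with the 5′ splice site, the U2AF proteins mark the 3′ splice site, U2 with its SF3A and SF3B complexes binds the branch site, and the U4, U5 and U6 particles with the PRPF proteins join before catalysis. The hnRNPs coat nascent transcripts, and many of them favour or block the use of nearby splice sites. The array measures the RNA of these genes and not splicing itself.

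Values are log2 expression values, so a difference of 1 is a doubling of signal. Sheep RNA was hybridised to probes designed on cattle sequence, so between species the amount of RNA and its match to the probes cannot be told apart. The median over the members of the 15-array mean was 8.43, against 3.25 over all probe sets, and 38 members had a mean of at least 8. Values under 3 lie near the bottom of the range, where 45.9% of all probe sets are found, and cannot be told from no expression. Of the members, 6 probe sets had a mean under 3 in all groups, but no gene had all its probe sets there. Signals of different probe sets depend on their probes, so their heights in the plot of levels by gene do not rank the genes by RNA amount.

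**Figure D1:**
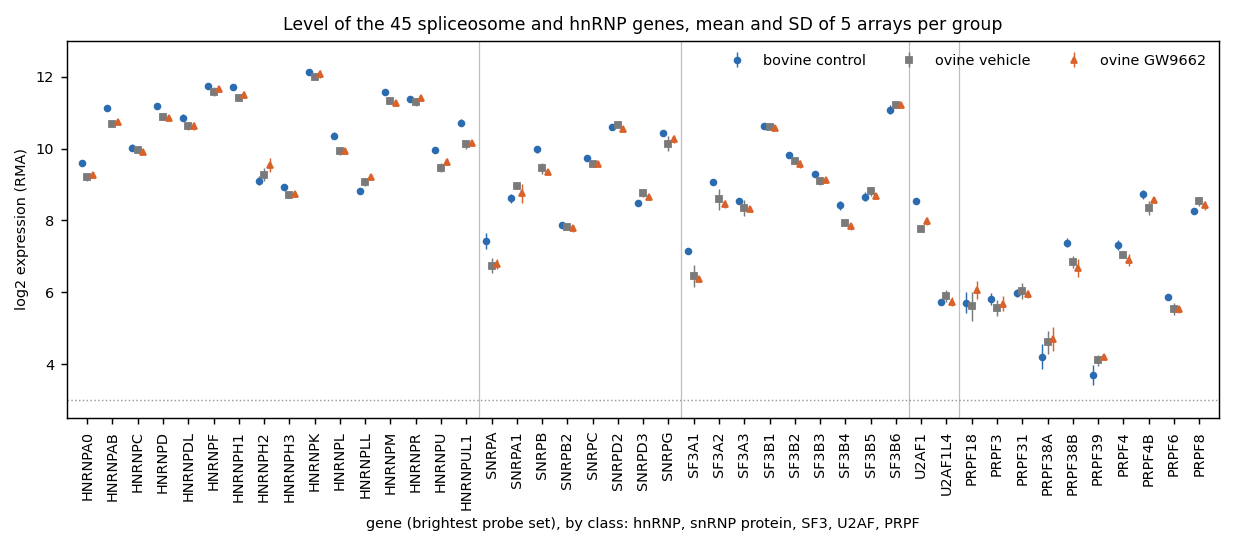
Log2 expression (vertical axis) of the brightest probe set of each of the 45 genes (horizontal axis, grouped by class and then by symbol), as the mean and SD of 5 arrays for bovine control (circles), ovine vehicle (squares) and ovine GW9662 (triangles); the dotted line marks 3. The 3 groups lie close together for most genes, and bovine cells are above both ovine groups for genes such as HNRNPUL1, SNRPB, SF3A1 and U2AF1.

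The arrays themselves differed in ways that touch these comparisons. The mean difference between 3′ and 5′ probe sets of 6 control transcripts, a measure of RNA integrity and labelling, was 0.881 ± 0.0432 on the bovine arrays (SD, n = 5), 1.18 ± 0.0846 on the vehicle arrays and 0.956 ± 0.0741 on the GW9662 arrays. Vehicle arrays were higher than either other group without overlap (exact permutation test, two-sided, p = 0.00794 in both comparisons, the smallest that 5 against 5 arrays allow). Vehicle replicate 1 stood apart from its group, with a mean distance of 0.166 from it against 0.0962 to 0.110 for the other vehicle arrays. Of 15 endothelial markers, 13 were measured. Their mean over the list was 8.12 to 8.20 on bovine arrays, 7.60 to 7.70 on vehicle arrays and 7.55 to 7.76 on GW9662 arrays. PECAM1 and CDH5 were high in all groups, whereas VWF was under 3 in all, and CLDN5 and FLT1 were under 3 in both ovine groups. KDR was at 3.08 in bovine, 2.64 in vehicle and 3.79 in GW9662 cells. Among markers of other cells, all 5 epithelial genes were under 3 in every group. So were ACTA2, CNN1, DES and MYH11 of the 6 smooth muscle genes, COL1A1, DCN, LUM and PDGFRA of the 5 fibroblast genes, and PTPRC, CD3E, CD68 and AIF1 of the 5 leukocyte genes measured. TAGLN, a smooth muscle marker, was at 9.00 in bovine cells against 7.18 and 7.16 in the ovine groups, and CD14 was at 2.27 against 6.69 and 6.72. COL1A2, the fifth fibroblast gene, was high everywhere, at 11.2 in bovine, 10.3 in vehicle and 10.4 in GW9662 cells, and SMTN, the remaining smooth muscle gene, was at 5.19, 3.91 and 4.29. In such bulk samples, fewer cells of a type and less RNA per cell cannot be told apart. The part of these marker differences in the member results was not tested.

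In ovine cells given GW9662, no member probe set differed from vehicle after adjustment. Of 68, 0 were higher and 0 were lower in limma's fit with Benjamini-Hochberg adjustment over 24016 probe sets at a threshold of 0.05. Of all probe sets 0.183% passed, 0.146% higher and 0.0375% lower. At an unadjusted p under 0.05, 7 members were higher and 4 lower, against 6.87% and 14.5% of all probe sets, and 3 members had groups that did not overlap, against 14.6% of all. The 3 without overlap were a probe set of SF3B1 and those of PRPF8 and SNRPD3 with means under 3 in both groups. Without vehicle replicate 1 the counts were also 0 and 0, and a fit on all 15 arrays passed 1 member, SF3B1. The members' differences ran from -0.29 to 0.98 with a median of 0.023, beside -0.016 over all probe sets. Among probe sets with a mean of at least 4, the median was 0.031 for the members and 0.046 over all 10496. The sign of the members' median depended on scaling: it was 0.065 with array medians centred and -0.0088 after a second quantile normalisation. It was -0.061 with the 3′ to 5′ measure as a covariate. GW9662 and vehicle arrays did not overlap in that measure, so treatment and RNA measure cannot be told apart. By class, 22 of 27 hnRNP probe sets were above zero, beside 35.1% of all probe sets. With array medians centred these were 24 of 27 and 70.7%, and after a second quantile normalisation 18 of 27 and 49.3%. The hnRNP median was 0.090, and 0.13 and 0.080 under those scalings. The snRNP protein median was -0.045, and -0.0024 and -0.11. The PRPF median was 0.062, and 0.10 and 0.014. For SF3A and SF3B it was -0.029, and 0.013 and -0.061. The shares above zero over all probe sets include many dim ones, and none was taken at like brightness. With the 3′ to 5′ covariate some hnRNP probe sets turned negative, as for HNRNPUL1, and others rose, as for HNRNPU. The class counts and medians are a description and were not tested.

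The lowest adjusted p among members belonged to SF3B1, the SF3B subunit that holds the branch site helix and a frequent target of mutation in blood cancers. Its dimmest probe set read 5.08, 5.60, 4.58, 4.72 and 5.17 on the GW9662 arrays against 3.81, 3.75, 4.54, 4.29 and 3.90 on the vehicle arrays. The groups did not overlap, although the lowest treated array and the highest vehicle array nearly met. The difference was 0.98 (SE 0.224), a 1.97-fold higher signal, and it did not pass (limma, adjusted p = 0.156). It passed in the fit on all 15 arrays (adjusted p = 0.0470) and came to 0.067 when the 3′ to 5′ measure entered the fit. The other SF3B1 probe sets gave 0.62, 0.023 and -0.016 in order of rising brightness, and the brightest was at 10.57 ± 0.0482 with GW9662 and 10.59 ± 0.0381 with vehicle (SD, n = 5).

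U2AF1, the small U2AF subunit that reads the AG at the 3′ splice site, followed. It read 8.10, 8.03, 7.86, 8.08 and 7.87 with GW9662 against 7.68, 7.88, 7.82, 7.69 and 7.71 with vehicle. Only 1 vehicle array reached into the treated range. The difference was 0.23 (SE 0.0615), not passed (limma, adjusted p = 0.201). With the 3′ to 5′ covariate it came to 0.092 (SE 0.106). U2AF1L4, the paralogue of U2AF1, gave -0.16 without the covariate.

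Among the hnRNPs, HNRNPH2, which binds G-rich RNA, read 9.37, 9.83, 9.45, 9.65 and 9.44 with GW9662 and 9.00, 9.33, 9.49, 9.33 and 9.22 with vehicle. HNRNPU, an RNA and DNA binding protein of the nuclear scaffold, read 9.61, 9.48, 9.76, 9.67 and 9.68 against 9.43, 9.35, 9.40, 9.54 and 9.65. The groups overlapped in both genes, with differences of 0.27 and 0.17 (limma, adjusted p = 0.222 and 0.220). HNRNPM, a splicing regulator, went the other way by -0.063 (SE 0.0211), from 11.32 ± 0.0255 with vehicle to 11.25 ± 0.0397 with GW9662 (SD, n = 5). The remaining genes with the smallest unadjusted p were HNRNPLL (0.14, 0.16 and 0.23 on its 3 probe sets), HNRNPUL1 (0.39, 0.11 and 0.038), the kinase PRPF4B (0.21), PRPF38B (0.10 and -0.17), PRPF8 (-0.11, -0.078 and -0.29), SF3B6 (0.0081 and -0.12) and the Sm protein SNRPD2 (-0.11). None of these passed the test.

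Bovine cells had higher signal than vehicle-treated ovine cells for 35 of the 68 member probe sets and lower signal for 6, and 27 did not pass in limma's fit on these 10 arrays. The higher ones included HNRNPUL1, HNRNPA0, HNRNPDL, U2AF1, SF3A1, SNRPA and SNRPB, and the lower ones SNRPA1, SNRPD3, HNRNPLL, PRPF8 and PRPF39. Over all probe sets 15.6% were higher and 29.6% lower, and 45.2% were called in all. Only 2523 of the 7120 lower calls over all probe sets had a mean of at least 4. Of the calls over all probe sets 34.4% were higher as deposited, 57.9% with array medians centred and 47.4% after a second quantile normalisation, whereas of the members' calls it was 85.4%, 90.0% and 85.0%. Among probe sets with a mean of at least 4, 34 of 58 members were higher (58.6%) and 4 lower (6.90%), beside 31.7% and 23.9% of all 10539. The members' median difference was 0.19, beside -0.029 over all. Bovine arrays were all above the vehicle arrays for 31 members and all below for 9, against 12.5% and 40.5% of all probe sets. Those below included probe sets of HNRNPL, SF3A2, SNRPD3 and PRPF8 with means under 3 in both groups. Without vehicle replicate 1, 35 were higher and 9 lower. By gene, 26 had a probe set that was higher, 5 had 1 that was lower, none had both, and 14 had neither. Against ovine cells given GW9662, which share the bovine arrays with this comparison, 32 members were higher and 5 lower, where 14.6% and 14.8% of all probe sets were called so, 29.4% in all. Against vehicle 5 member probe sets had estimated differences above 1, from 1.01 to 1.64. None passed limma's treat test against a log2 difference of 1, which 557 and 634 probe sets passed in the comparisons with vehicle and GW9662.

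The bovine and vehicle arrays did not overlap in the 3′ to 5′ measure. With that measure as a covariate, 2 members remained higher, HNRNPH1 and U2AF1, and 0 lower. Over all probe sets the calls fell from 10860 to 1601, of which 574 were higher and 1027 lower. The members' median was then 0.14 in place of 0.19. Of the 41 called members, 22 kept a difference within 1.5 times, 16 had one reduced by more than that, 1 had one raised by more and 2 changed sign, while their median SE went from 0.0620 to 0.165. Group and RNA measure lie along the same split of these arrays and cannot be told apart. The bovine and GW9662 arrays did overlap in it, from 0.843 to 0.942 and from 0.853 to 1.04, and with the covariate 29 members were higher and 4 lower there. Over all probe sets 2972 were then higher and 3007 lower, in place of 3509 and 3543.

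**Figure D2:**
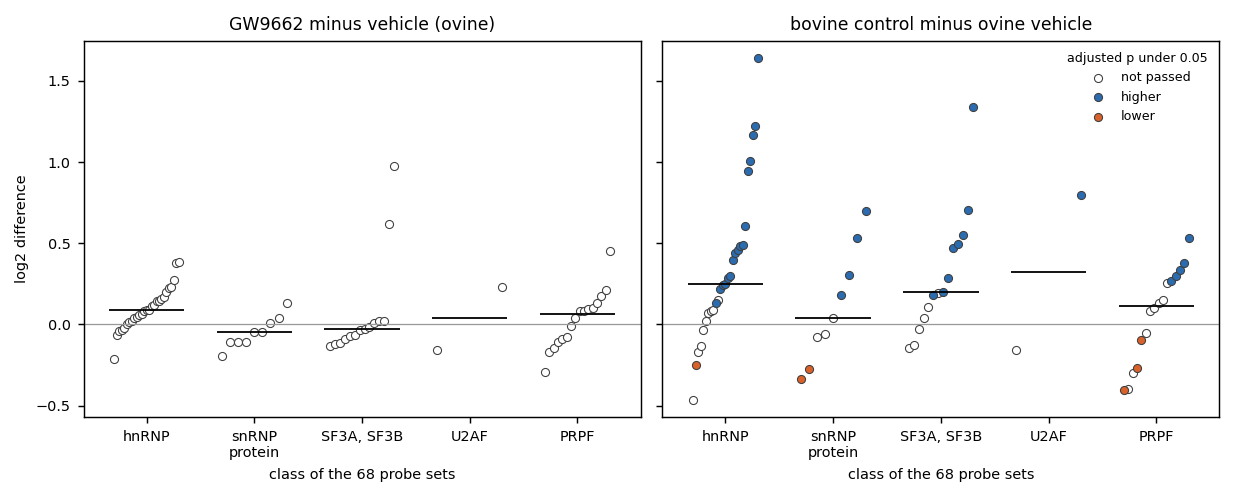
Log2 difference (vertical axis) of each of the 68 member probe sets, by class (horizontal axis), for GW9662 minus vehicle (left) and bovine control minus ovine vehicle (right); filled points passed an adjusted p of 0.05 in limma's fit and horizontal bars are class medians. No point is filled on the left, and 35 are filled above zero and 6 below zero on the right.

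The hnRNP genes made up 17 of the 35 higher probe sets, and 11 of 16 hnRNP genes had a higher probe set. HNRNPUL1, a relative of HNRNPU, was higher on all 3 probe sets. The brightest read 10.70, 10.81, 10.60, 10.70 and 10.80 on the bovine arrays and 10.02, 10.18, 10.31, 10.05 and 10.03 on the vehicle arrays. With GW9662 it read 10.16, 10.16, 10.23, 10.12 and 10.11. Every bovine array was above every ovine array, while the ovine groups overlapped. The difference from vehicle was 0.61 (SE 0.0651, limma, adjusted p = 0.000101). A dimmer probe set gave 1.64, a 3.12-fold higher signal and the largest difference of any member, from 5.23 ± 0.344 in vehicle to 6.87 ± 0.115 in bovine cells (SD, n = 5), and the remaining probe set gave 0.49. With the 3′ to 5′ covariate the 3 values were 0.25, 0.78 and 0.14.

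HNRNPA0, an RNA-binding protein of the A/B family, was higher by 0.40, 1.17 and 1.22 on its 3 probe sets. The brightest read 9.59, 9.54, 9.58, 9.65 and 9.61 in bovine cells against 9.07, 9.28, 9.32, 9.14 and 9.18 with vehicle and 9.41, 9.28, 9.19, 9.22 and 9.21 with GW9662. Again no ovine array reached the bovine range. The probe set with the difference of 1.22 lay at 2.75 ± 0.106 in vehicle (SD, n = 5), near the bottom of the range. With the covariate it came to 0.68 (SE 0.378) and the brightest to 0.18 (SE 0.103). The remaining probe set went from 1.17 to 1.36 (SE 0.346). HNRNPAB, of the same family, read 11.12, 11.16, 11.16, 11.12 and 11.14 in bovine cells and 10.55, 10.70, 10.74, 10.70 and 10.74 with vehicle. The bovine arrays lay close together and above all vehicle arrays, and the difference was 0.46 (SE 0.0344, limma, adjusted p = 1.01e-05).

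HNRNPD, also known as AUF1, binds AU-rich elements that speed mRNA decay, and HNRNPDL is its close relative. HNRNPD was higher by 0.29 (SE 0.0478). HNRNPDL was higher by 1.01 on a probe set that read 8.52, 8.39, 8.46, 8.48 and 8.37 in bovine cells and 7.24, 7.39, 7.32, 7.63 and 7.62 with vehicle. On its brighter probe set the difference was 0.24 and the groups overlapped, since bovine replicate 2, at 10.69, lay below vehicle replicate 2, at 10.78.

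The F/H family, which binds runs of G, gave mixed calls. HNRNPH1 read 11.67, 11.73, 11.73, 11.68 and 11.74 in bovine cells against 11.41, 11.44, 11.40, 11.39 and 11.41 with vehicle. The arrays of each group lay close together without overlap, and the difference of 0.30 (SE 0.0174) had the smallest adjusted p of any member in this comparison (limma, 1.91e-06). HNRNPH3 was higher by 0.22. HNRNPF gave 0.15 and -0.13 on its 2 probe sets and HNRNPH2 gave -0.17, and none of these 3 values passed. Against GW9662, HNRNPH2 was lower in bovine cells by -0.44 (SE 0.0952, limma, adjusted p = 0.00668), with all bovine arrays, from 8.91 to 9.22, below all treated arrays, from 9.37 to 9.83.

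Of the remaining hnRNPs, HNRNPU (0.48), HNRNPM (0.25) and HNRNPL (0.44 on its brightest probe set), which binds CA repeats, were higher. HNRNPK, a poly-C binding protein with KH domains, was higher by 0.13 on the brighter probe set, and the other gave 0.087, which did not pass. HNRNPC, which binds U-rich tracts and helps package nascent RNA, gave 0.070, and HNRNPR gave 0.082, and neither passed. HNRNPLL, the paralogue of HNRNPL that controls CD45 exons in lymphocytes, was the hnRNP gene that was lower. It read 8.75, 8.77, 8.89, 8.76 and 8.93 in bovine cells, 8.97, 9.15, 9.20, 9.04 and 8.97 with vehicle, and 9.24, 9.36, 9.12, 9.15 and 9.18 with GW9662. All bovine arrays lay below all ovine arrays, with a difference from vehicle of -0.25 (SE 0.0577, limma, adjusted p = 0.0105) and from GW9662 of -0.39.

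Of the snRNP protein genes, 4 were higher, 2 lower and 2 did not pass. Among the Sm proteins, which form the ring on the U1, U2, U4 and U5 RNAs, SNRPB read 9.87, 10.11, 10.04, 9.97 and 9.92 in bovine cells, 9.41, 9.53, 9.65, 9.23 and 9.42 with vehicle, and 9.38, 9.32, 9.42, 9.23 and 9.34 with GW9662. The bovine arrays were above every ovine array, by 0.53 (SE 0.0768) over vehicle and 0.64 over GW9662 on average. SNRPG, another ring member, was higher by 0.30 and SNRPD2 gave -0.076, which did not pass. SNRPD3 was lower by -0.27 (SE 0.055), at 8.42, 8.42, 8.59, 8.46 and 8.55 in bovine cells against 8.67, 8.84, 8.88, 8.64 and 8.78 with vehicle. So members of the same ring were called in opposite directions, without overlap between the groups for SNRPB, SNRPG and SNRPD3.

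The U1 proteins SNRPA and SNRPC were both higher. SNRPA read 7.31, 7.81, 7.29, 7.33 and 7.44 in bovine cells against 6.42, 6.91, 6.93, 6.65 and 6.77 with vehicle, a difference of 0.70 (SE 0.128) without overlap that came to 0.10 (SE 0.285) with the 3′ to 5′ covariate. SNRPC differed by 0.18. Of the pair of U2 proteins, SNRPB2 gave 0.041 and did not pass, and SNRPA1 was lower. SNRPA1 read 8.57, 8.53, 8.62, 8.81 and 8.54 in bovine cells against 8.96, 8.99, 8.90, 8.84 and 9.05 with vehicle. The groups did not overlap and the difference was -0.33 (SE 0.0596, limma, adjusted p = 0.00246). With GW9662 it was widely spread, at 8.50, 8.54, 9.14, 8.88 and 8.72, and overlapped both other groups.

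In the SF3A and SF3B complexes, 6 of 9 genes had a higher probe set and none a lower one. SF3A1 read 7.14, 7.16, 7.11, 7.26 and 7.11 in bovine cells, 6.08, 6.84, 6.68, 6.26 and 6.39 with vehicle, and 6.38, 6.35, 6.49, 6.32 and 6.39 with GW9662. Vehicle arrays were more spread than either other group but stayed below the bovine range, and the difference was 0.71 (SE 0.133, limma, adjusted p = 0.00349), and 0.21 (SE 0.328) with the 3′ to 5′ covariate. SF3A2 (0.47), SF3B4 (0.50), SF3B2 (0.18) and SF3B3 (0.20) were also higher. The brightest SF3A2 probe set has probes that match more than 1 transcript by the suffix of its name, as has the dimmer HNRNPF probe set. SF3A3 (0.19), SF3B5 (-0.14) and SF3B6 (-0.13), the subunit that contacts the branch adenosine, did not pass. Against GW9662, SF3A3 was higher by 0.23 (SE 0.0251). SF3B1, with 4 probe sets, is described with the genes whose probe sets disagreed.

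U2AF1 had the second smallest adjusted p of the members. It read 8.55, 8.65, 8.50, 8.60 and 8.46 in bovine cells, above the highest vehicle value of 7.88 and the highest GW9662 value of 8.10. The difference was 0.80 (SE 0.0498, 1.74-fold, limma, adjusted p = 2.82e-06) from vehicle and 0.57 (SE 0.0583) from GW9662. The treated ovine arrays thus lay between the other groups on average, at 7.99 ± 0.114 (SD, n = 5). In the 3′ to 5′ measure they also lay between the other groups on average. U2AF1L4 gave -0.16 against vehicle and did not pass.

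Of the PRPF genes, 4 were higher, 2 lower and 4 did not pass. PRPF38B, a homologue of the tri-snRNP factor PRPF38A, was higher on both probe sets, by 0.53 and 0.30. The brighter read 7.31, 7.59, 7.34, 7.27 and 7.37 in bovine cells against 6.65, 7.04, 6.99, 6.71 and 6.84 with vehicle, without overlap. PRPF4B (0.38), the U5 bridge protein PRPF6 (0.34) and the U4/U6 protein PRPF4 (0.27) were higher as well. PRPF3 (0.25) and PRPF31 (-0.054 and 0.13), also of U4/U6, PRPF38A (-0.40) and the second-step factor PRPF18 (0.10 and 0.15) did not pass.

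PRPF8, the large scaffold at the catalytic core, was lower. Its brightest probe set read 8.25, 8.23, 8.25, 8.37 and 8.19 in bovine cells, 8.40, 8.63, 8.61, 8.36 and 8.64 with vehicle, and 8.55, 8.28, 8.54, 8.38 and 8.36 with GW9662. The groups overlapped slightly, with a difference of -0.27 (SE 0.0644, limma, adjusted p = 0.0117) from vehicle and -0.16 from GW9662, which did not pass. A second PRPF8 probe set was called lower by -0.095 but lay between 2.46 and 2.69 on all bovine and vehicle arrays, and leaving out any of 7 of the 10 arrays ended its call. PRPF39, a U1-associated factor, was lower by -0.40 on a dim probe set that read 3.46, 3.89, 3.92, 3.91 and 3.34 in bovine cells and 4.00, 4.16, 3.95, 4.34 and 4.09 with vehicle. That call too was lost without any 1 of 5 arrays, with adjusted p up to 0.0844.

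**Figure D3:**
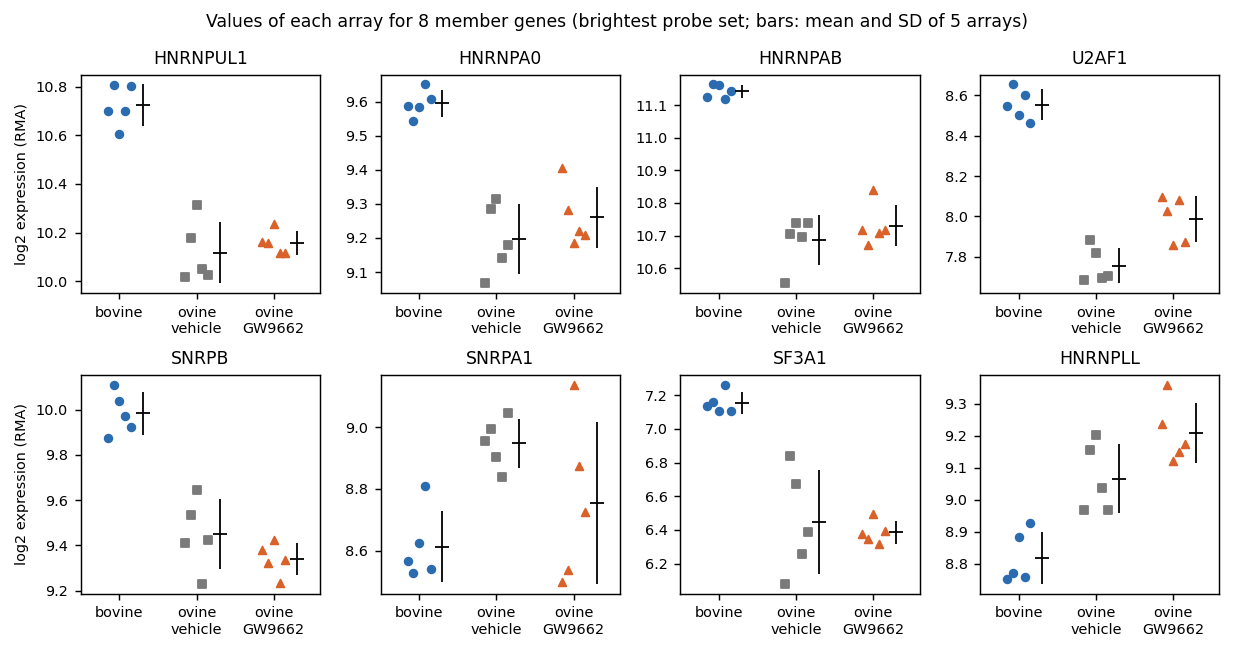
Log2 expression (vertical axis) of each array for 8 member genes, by group (horizontal axis); points are arrays, and the bar beside them is the mean and SD of 5 arrays. Bovine arrays lie above all ovine arrays for HNRNPUL1, HNRNPA0, HNRNPAB, U2AF1, SNRPB and SF3A1, below all ovine arrays for HNRNPLL, and below the vehicle arrays for SNRPA1.

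Several genes gave different answers on different probe sets. Of the 45 genes, 29 had 1 probe set, 10 had 2, 5 had 3 and SF3B1 had 4. Of the 16 genes with several, 4 were called the same way on all of them in the comparison of bovine with vehicle arrays (HNRNPA0, HNRNPDL, HNRNPUL1 and PRPF38B), 8 on some, and 4 on none. No gene was called in opposite directions, although 7 had differences of opposite sign. Against GW9662, 4 were called on all, 6 on some and 6 on none, and 4 had opposite signs. Between GW9662 and vehicle 6 had opposite signs, none of them called.

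SF3B1 showed the widest range against vehicle. In order of rising brightness its probe sets gave 1.34, 0.55, 0.29 and 0.037, of which the first 3 passed and the brightest did not. The dimmest read 5.09, 5.80, 5.29, 5.35 and 5.45 in bovine cells, above all vehicle arrays. The brightest read 10.62, 10.65, 10.62, 10.62 and 10.63 in bovine cells against 10.61, 10.60, 10.62, 10.52 and 10.59 with vehicle. The ranges of the brightest probe set overlapped slightly, at a difference of 0.037 (SE 0.0189), while the signal of the dimmest was 2.53-fold higher in bovine cells. With the 3′ to 5′ covariate the 4 values were 0.29, -0.27, 0.34 and 0.050, in the same order, and none passed. The call on the second dimmest (0.55) was lost without any 1 of 6 arrays, with adjusted p up to 0.0683. Against GW9662 the same probe sets gave 0.36, -0.066, 0.26 and 0.053, and the value of 0.26 passed (limma, adjusted p = 0.0239), though not without any 1 of 3 arrays.

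HNRNPL gave 0.44 on the brightest probe set, 0.95 on a dim one at 4.61 ± 0.219 in bovine and 3.66 ± 0.263 in vehicle cells (SD, n = 5), and -0.035 on another that stayed between 1.98 and 2.08. Against vehicle HNRNPLL was called lower on its brightest probe set only, with 0.019 and -0.47 on the others. Against GW9662 the dimmest was also called, at -0.70 (SE 0.171, limma, adjusted p = 0.0129), although its groups overlapped. Some disagreements in call or sign involve a probe set near the bottom of the range, as for SF3A2, SNRPD3, PRPF8 and PRPF31. The part of the low signal in them was not tested. In the 10 genes with at least 2 probe sets of mean 4 or more, the brightest had the smaller absolute difference against vehicle in 6, beside 60.4% of 991 such genes on the array. That share is close to the one over all such genes.

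**Figure D4:**
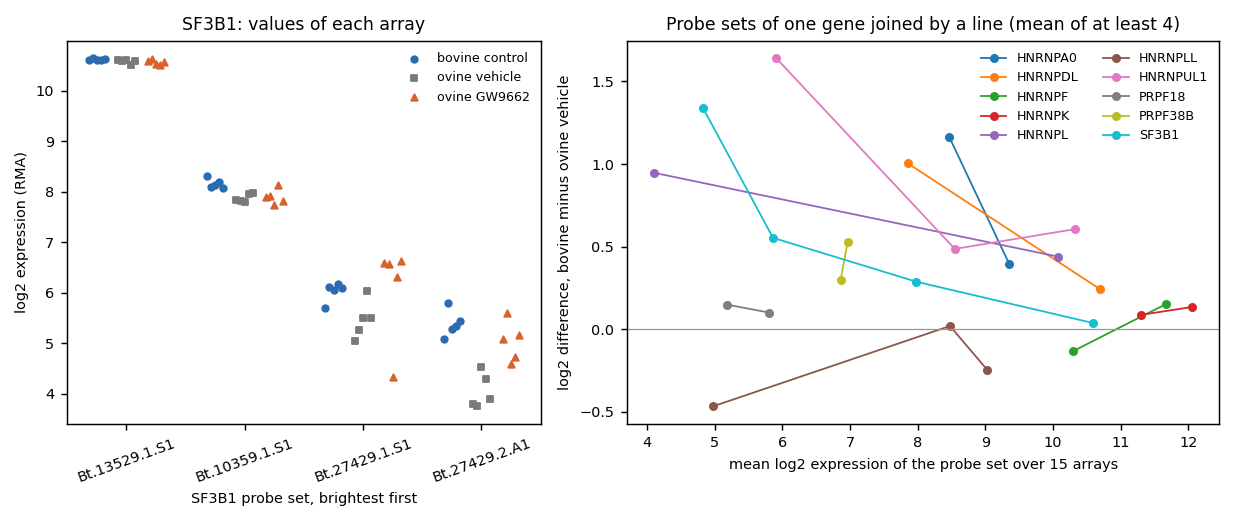
Left, log2 expression (vertical axis) of each array on the 4 SF3B1 probe sets, brightest first (horizontal axis), for bovine control (circles), ovine vehicle (squares) and ovine GW9662 (triangles). Right, log2 difference of bovine minus vehicle (vertical axis) against the mean log2 value of the probe set over 15 arrays (horizontal axis), with probe sets of a gene joined; SF3B1 falls from 1.34 to 0.037 with rising brightness.

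Other genes of the splicing pathway were followed as lists, which were chosen with earlier results of these data known. They are to be read beside the 15.6% higher and 29.6% lower over all probe sets. For bovine against vehicle, these shares were 31.7% and 23.9% among all probe sets with a mean of at least 4. The lists were not filtered by mean. Of 73 other core spliceosome genes, 59 were measured on 85 probe sets, of which 32 were higher and 9 lower in bovine than in vehicle-treated ovine cells. LSM2 (0.82), of the ring on U6 RNA, the helicase DDX39B (0.91) and WBP11 (0.58) were among the higher, and the helicase AQR (-0.44) among the lower. Of SR proteins, SR kinases and other regulators, 45 of 59 were measured on 77 probe sets, with 39 higher and 6 lower. The SR protein SRSF1 was higher by 1.56, 1.15 and 0.44 on its 3 probe sets, TRA2B by 0.61 and KHDRBS1 by 1.06 and 0.60, and the kinase SRPK2 was lower by -0.82. Exon junction and export genes, 20 of 29 measured on 29 probe sets, had 16 higher and 4 lower, including THOC6 (0.75) and ACIN1 (0.80). The snRNP assembly genes, 13 of 20 measured on 26 probe sets, had 3 higher and 5 lower. The lower ones included GEMIN8 (-0.055) and SMN2 (-0.033 and -0.033) on probe sets with means under 3 in both groups. Against GW9662, another SMN2 probe set was higher by 0.78, at 6.80 in bovine and 6.01 in treated ovine cells. Against vehicle PRMT5 (0.33), which methylates Sm proteins, was higher and GEMIN4 (-0.54) was lower. STRAP was lower by -0.22 on its brightest probe set, and its other probe sets did not pass. The median differences of the 4 lists were 0.14, 0.23, 0.27 and 0.11, in the order given.

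With GW9662, these lists had 2 probe sets past the threshold, both of SRSF1 and both higher. SRSF1, which promotes exon inclusion and binds enhancer sequences, was at 8.32 ± 0.097 with GW9662 and 7.68 ± 0.145 with vehicle (SD, n = 5) on the brighter, a difference of 0.64 (limma, adjusted p = 0.0184), and the other gave 0.61 (adjusted p = 0.0419). The groups did not overlap on either. The third SRSF1 probe set gave 0.11 (adjusted p = 0.261). With the 3′ to 5′ covariate the called probe sets gave 0.61 and 0.33, and neither passed (limma, adjusted p = 0.576 and 0.808), nor did any of the 24016 probe sets. No other core, assembly, or exon junction and export gene passed. The assembly factor STRAP gave 0.53 on each of 2 probe sets (limma, adjusted p = 0.112 and 0.217) and 0.067 on the third, its brightest.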

How the data were processed

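Total RNA from 15 samples was hybridised to bovine Affymetrix arrays, 1 per sample. The deposited values are log2 expression values that the authors made with RMA (background correction, quantile normalisation and probe summary), per the submitters' processing notes; its version and the arrays normalised together are not given in the sources used here. The number of arrays limits the precision. The 112 control probe sets were left out. Using limma 3.58.1 (lmFit, then eBayes) under R 4.3.3, each comparison was fitted to the 10 arrays of its groups without a filter or block, adjusted over 24016 probe sets by Benjamini-Hochberg at 0.05. The fit was tested on simulated data. Of these probe sets 13292 had 1 symbol, 86 several and 10638 none. The members and lists were chosen with earlier results of these data known. Described in full were, with GW9662, the 12 genes of smallest unadjusted p, and, between species, up to 10 called genes per direction of largest difference without overlap. Added to these were the 6 genes of highest mean value, both U2AF genes, and genes with 3 or more probe sets of which some passed; further members were named to account for every class. Alternatives covered scaling, filtering, variance models, array weights, all 15 arrays, the replicate block, the 3′ to 5′ covariate, probe set choice, treat and each array left out.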

Additional observations from a re-analysis of the deposited data

Results flagged for a closer look

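In 138 groups of 5 arrays (46 probe sets of the 26 genes described in full, in 3 groups), 9 had an array far from the other 4 by Dixon's criterion, which chance gives in about 1 of 20 groups. On the second dimmest SF3B1 probe set, GW9662 replicate 3 was at 4.32 against 6.32 to 6.63 for the others, and bovine replicate 1 was at 5.70 against 6.05 to 6.17. Without GW9662 replicate 3, the SF3B1 difference between GW9662 and vehicle on this probe set was 1.06 in place of 0.62 (limma, adjusted p = 0.0902). On the middle HNRNPL probe set by brightness an array stood apart in each group: bovine replicate 4 at 4.99 (others 4.43 to 4.56), vehicle replicate 4 at 4.12 (3.46 to 3.62) and GW9662 replicate 3 at 3.48 (4.12 to 4.35). The remaining 4 were near the bottom of the range: PRPF8 in vehicle replicate 1 at 3.43 (2.15 to 2.29), PRPF39 in bovine replicate 3 at 3.44 (2.87 to 2.92), SNRPD3 in vehicle replicate 4 at 2.40 (2.23 to 2.25) and the dimmest HNRNPL probe set in vehicle replicate 1 at 2.08 (2.00 to 2.02).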

How the results depend on the processing

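No member passed between GW9662 and vehicle under any alternative run but the fit on all 15 arrays, which passed 1, nor with any array left out (0 to 0). In bovine against vehicle, 35 higher and 6 lower became 2 in all, 2 higher and 0 lower, with the 3′ to 5′ covariate; treat gave 0 in all, 0 higher and 0 lower here and against GW9662. Means over the probe sets of a gene gave 3 lower genes. Leaving out arrays gave 33 to 36 higher and 4 to 9 lower against vehicle, and 28 to 34 higher and 4 to 6 lower against GW9662. Correlations of only 5 pairs cannot decide whether replicate numbers pair the samples. Between GW9662 and vehicle arrays, 2 of 5 same-numbered pairs correlated above 0.1, from -0.18 to 0.23. Of the 5 arrays, 1 correlated best with its own number. A replicate block gave 0 and 0 with GW9662, where 0 of all probe sets then passed and both SRSF1 calls were lost (adjusted p = 0.107 and 0.153), 31 higher and 4 lower against vehicle, and 30 higher and 3 lower against GW9662. The causes were not tested.

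Signs turned as follows, and among these values only PRPF8 at 0.089 and SF3B1 at -0.27 had passed before. For GW9662 minus vehicle, the brightest SF3B1 probe set was 0.027 with centred medians, and a second quantile normalisation gave the second brightest -0.036 and HNRNPUL1 -0.00791. With the covariate, SF3B1 was -0.026 and -0.65, HNRNPLL -0.090 and -0.26, SF3B6 -0.11, PRPF8 0.011 and 0.36, HNRNPUL1 -0.14, -0.022 and -0.079, HNRNPR -0.021, HNRNPK -0.036 and HNRNPH2 -0.12. Gene means gave PRPF38B -0.036, SF3B1 0.40, SF3B6 -0.054 and HNRNPF -0.064. With arrays left out, SF3B6 ran from -0.010 to 0.043 and the second brightest SF3B1 probe set from -0.033 to 0.064. For bovine minus vehicle, the second brightest HNRNPLL probe set was -0.016 after quantile normalisation, -0.00608 with array weights and -0.041 to 0.087 with arrays left out. The dimmer PRPF39 probe set ran from -0.028 to 0.12. With the covariate, PRPF8 was 0.089 and 0.91, HNRNPR -0.12, HNRNPF -0.00225, the dimmest HNRNPL probe set 0.048 and SF3B1 -0.27.

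The deposited values hold no measure of signal over background, so low values bound nothing, and the match of sheep RNA to cattle probes was not measured. The replicate structure is unknown. In the comparisons of bovine and of GW9662 arrays with vehicle arrays, the RNA measure and the groups cannot be told apart. Many differences are small, and 29 genes rest on a single probe set.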
